A study of Danio rerio with 18 samples.

Results

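The zebrafish genes zp3b, zp2.6, zp3d.1, zar1, bmp15, h1m, wee2, mos and btg4 build the egg coat or act in the growth and maturation of the oocyte. They were chosen by name: every probe set whose platform annotation gives 1 of these symbols and no other was taken, which gave 14 probe sets for the 9 genes, out of 15502 probe sets and 8793 named genes. RNA of whole wild-type zebrafish embryos had been measured on 18 Affymetrix arrays. Each embryo had received a locked nucleic acid (LNA), a stabilised oligonucleotide of the kind used to bind and block small RNAs, at the 1 to 2 cell stage. The 6 groups of 3 arrays were embryos injected with mockLNA or with anti-mir-34LNA and collected 1, 7 or 24 hours post fertilization (hpf). Embryos were watched under the microscope and selected ones were kept, all at the same temperature, and those of 7 and 24 hpf were taken out of the chorion by hand. All groups thus carry an injection and none is uninjected, and the level of mir-34 itself is not analysed here. How many embryos or clutches stand behind an array is not stated in the labels, and p-values measure only the spread between these arrays.

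A fish oocyte makes its coat and fills itself with messenger RNA long before fertilization. Zona pellucida (ZP) domain proteins polymerise into the egg envelope, and the oocyte waits in meiosis until maturation starts the kinase cascade that ends in the mature egg. The embryo then lives on this maternal RNA until its own genome is switched on and the maternal messages are broken down. Once the egg is laid, most oocyte genes are not transcribed again in the body of the early embryo, so that their messages there are mostly those left by the egg.

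Levels are deposited log2 signals and run from -3.32 to 12.27 over the whole series. A step of 1 is a doubling of the signal. The table holds no detection calls, so a level near the bottom of the scale is not told apart from background, and the size of a fall to such a level is not exact. Some differences are therefore also given after 16 was added to the linear signals, which damps changes at the bottom of the scale. A probe set was called where limma's adjusted p, taken over all 15502 probe sets, was under 0.05. No value of the 14 probe sets was missing. The difference between the 3' and 5' control probe sets of GAPDH, a sign of RNA integrity and labelling, was -0.37 to 0.19 at 1 hpf, -1.40 to 0.78 at 7 hpf and 0.99 to 1.77 at 24 hpf. It moves with age, and its part in the age differences below was not tested. In RNA of whole embryos, fewer cells of a type and less RNA per cell cannot be told apart.

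For each gene the brightest of its probe sets is described first. On the arrays of 1 hpf these stood between 6.37 and 11.29, and all 9 had their lowest group means at 24 hpf. The median over the 9 genes lay between 8.71 and 9.11 on the 6 arrays of 1 hpf, between 5.63 and 7.87 at 7 hpf, and between -0.34 and 3.27 at 24 hpf. Between 1 and 7 hpf, zp3b, bmp15 and mos fell in both kinds of embryo and zp2.6, zp3d.1 and h1m passed in neither. The remaining zar1, wee2 and btg4 passed in anti-mir-34 embryos and not in mock embryos, though the difference of this step between the injections passed for none of the 9. The fit takes 1 spread per probe set from all 6 groups, so scatter at 24 hpf also enters the standard error of this step. On the mock arrays of 24 hpf the standard deviation was 3.55 for h1m, 3.49 for btg4 and 2.16 for zp3d.1. In fits of the compared groups alone, btg4 passed in mock embryos and h1m and zp3d.1 passed in anti-mir-34 embryos. A missed call here thus does not show that a level held. Every one of the 9 fell between 7 and 24 hpf in both kinds of embryo.

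**Figure D1:**
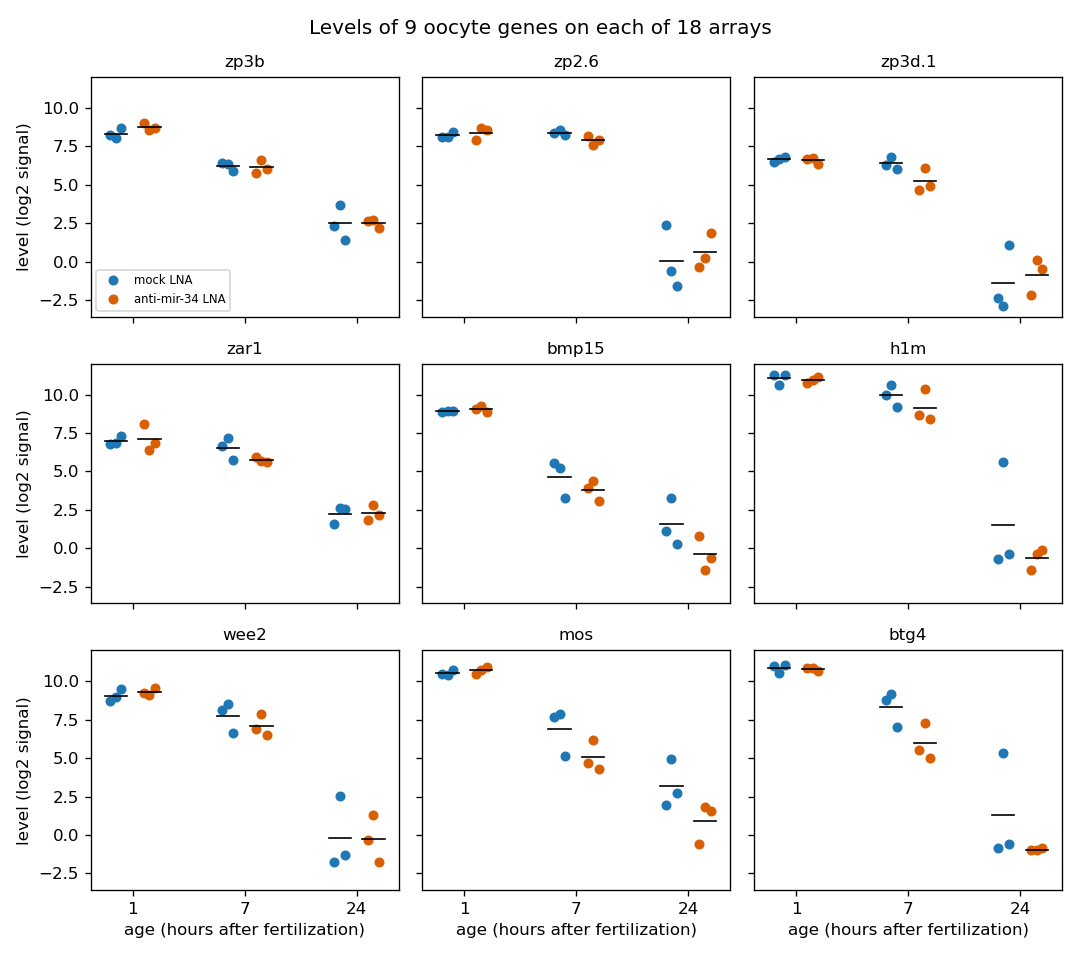
Log2 signal (vertical axis) of the brightest probe set of each of the 9 genes at 1, 7 and 24 hpf (horizontal axis). Points are single arrays, mock LNA in blue and anti-mir-34 LNA in orange, and black bars are means of 3 arrays. Levels of zp2.6 overlap between 1 and 7 hpf, those of mos and bmp15 drop in both steps, and 1 mock array stands high at 24 hpf for h1m (5.62) and btg4 (5.31).

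The first egg coat gene, zp3b (probe set Dr.25147.1.S1_at), codes for a ZP3-type protein of the envelope. Its levels were 8.23, 8.06 and 8.70 on the mock arrays of 1 hpf, 6.41, 6.36 and 5.88 at 7 hpf, and 2.35, 3.71 and 1.41 at 24 hpf, in the order of replicates 1 to 3. On the anti-mir-34 arrays they were 9.03, 8.55 and 8.69, then 5.79, 6.63 and 6.06, then 2.64, 2.71 and 2.17. Every array of an age lay below every array of the age before it. In mock embryos zp3b fell by 2.11 ± 0.41 (SE, n = 3 per age, limma adjusted p = 0.000584) between 1 and 7 hpf and fell by 3.73 ± 0.41 (adjusted p = 4.48e-07) between 7 and 24 hpf. In anti-mir-34 embryos the differences of zp3b were -2.6 ± 0.41 (adjusted p = 3.68e-05) and then -3.65 ± 0.41 (adjusted p = 7.21e-07).

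The second, zp2.6 (Dr.23439.4.S1_at), belongs to the ZP2-type family, whose members can lie side by side in the genome: zp2.1 is its next protein-coding neighbour in the RefSeq gene table. Mock levels of zp2.6 were 8.09, 8.14 and 8.42 at 1 hpf and 8.34, 8.57 and 8.25 at 7 hpf, and the 2 ages overlapped. At 24 hpf they were 2.42, -0.63 and -1.57. Anti-mir-34 levels were 7.89, 8.69 and 8.57, then 8.20, 7.59 and 7.88, then -0.32, 0.26 and 1.87. The difference between 1 and 7 hpf was 0.17 (95% interval -1.21 to 1.56, adjusted p = 0.882) in mock and -0.49 (interval -1.87 to 0.89, adjusted p = 0.589) in anti-mir-34 embryos. A fall of the size seen for zp3b in mock embryos lies outside both intervals. After 7 hpf zp2.6 fell, by differences of -8.32 ± 0.66 in mock (adjusted p = 7.64e-09) and -7.29 ± 0.66 in anti-mir-34 embryos (adjusted p = 5.16e-08), or -4.29 and -3.83 with 16 added.

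Another 3 probe sets carry zp2.6 together with other zp2 symbols, 3 symbols in 1 case and 5 in the other 2, and cannot be given to a single gene. Their mock means were 7.11, 8.23 and 10.15 at 1 hpf, 6.42, 7.79 and 9.26 at 7 hpf, and -0.21, 1.67 and 4.73 at 24 hpf. Only the last of them passed between 1 and 7 hpf in mock embryos (-0.90 ± 0.31, adjusted p = 0.0435), and all 3 fell between 7 and 24 hpf. Signal of near-identical copies in the zp2.6 probe set was not tested.

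The third coat gene, zp3d.1 (Dr.6109.1.A1_at), is a ZP3-type gene that neighbours zp3d.2. In mock embryos zp3d.1 stood at 6.49, 6.65 and 6.82 at 1 hpf, at 6.32, 6.80 and 6.06 at 7 hpf and at -2.37, -2.88 and 1.09 at 24 hpf. In anti-mir-34 embryos it stood at 6.69, 6.72 and 6.37, at 4.65, 6.10 and 4.90, and at -2.19, 0.14 and -0.46. The mock arrays of 1 and 7 hpf overlapped, and the anti-mir-34 arrays of those ages did not. Neither first step passed, with -0.26 ± 0.74 in mock (adjusted p = 0.837) and -1.38 ± 0.74 in anti-mir-34 embryos (adjusted p = 0.15). The latter passed in a fit of those 2 groups alone (adjusted p = 0.0152) and with 16 added to the signals (-1.05, adjusted p = 0.000813). Between 7 and 24 hpf zp3d.1 fell, by differences of -7.78 ± 0.74 in mock (adjusted p = 8.29e-08) and -6.06 ± 0.74 in anti-mir-34 embryos (adjusted p = 2.39e-06), or -2.58 and -1.70 with 16 added.

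Zygote arrest 1, coded by zar1 (Dr.12340.1.A1_at), is an RNA-binding protein that holds messages of the oocyte in store. Mock levels of zar1 were 6.81, 6.82 and 7.31 at 1 hpf, 6.62, 7.16 and 5.74 at 7 hpf and 1.57, 2.6 and 2.57 at 24 hpf. Anti-mir-34 levels were 8.11, 6.39 and 6.84, then 5.96, 5.65 and 5.63, then 1.86, 2.84 and 2.18. The first step was -0.47 ± 0.43 in mock embryos (adjusted p = 0.463), where the ages overlapped. In anti-mir-34 embryos zar1 fell by 1.37 ± 0.43 (adjusted p = 0.0153), a call that ended without anti-mir-34 replicate 1 of 1 hpf, the array at 8.11 (-0.87, adjusted p = 0.121). Between 7 and 24 hpf zar1 fell, by differences of -4.26 ± 0.43 in mock (adjusted p = 1.67e-07) and -3.45 ± 0.43 in anti-mir-34 embryos (adjusted p = 2.83e-06).

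The oocyte growth factor bmp15 is a secreted member of the TGF-beta family. It had the 2 probe sets Dr.7003.1.A1_at and Dr.7003.2.S1_at. On the first, mock levels were 8.85, 8.93 and 8.94 at 1 hpf, 5.52, 5.25 and 3.24 at 7 hpf and 1.14, 3.27 and 0.25 at 24 hpf. Anti-mir-34 levels were 9.07, 9.23 and 8.83, then 3.94, 4.35 and 3.09, then 0.80, -1.38 and -0.60. The arrays of 1 hpf agreed within a range of 0.09 in mock embryos and stood far above those of 7 hpf. In mock embryos of 7 and 24 hpf the values overlapped, because replicate 2 of 24 hpf (3.27) lay just above replicate 3 of 7 hpf (3.24). The first step was -4.24 ± 0.66 in mock (adjusted p = 6.65e-05) and -5.25 ± 0.66 in anti-mir-34 embryos (adjusted p = 3e-06). In the second step bmp15 fell, by differences of -3.11 ± 0.66 in mock (adjusted p = 0.000703) and -4.19 ± 0.66 in anti-mir-34 embryos (adjusted p = 4.85e-05). With 16 added these differences were -1.14 and -0.84, so that the larger fall was then in mock embryos.

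The second probe set of bmp15 varied more at 1 hpf, with mock levels of 7.51, 4.62 and 6.52 and anti-mir-34 levels of 7.17, 5.33 and 6.24. At 7 hpf it stood at 5.49, 5.89 and 3.80 in mock and at 2.21, 3.55 and 1.90 in anti-mir-34 embryos, with no overlap between the 2 groups. At 24 hpf all 6 arrays lay between 0.40 and 2.29. In mock embryos its first step did not pass (-1.16 ± 0.70, adjusted p = 0.248) and its second did (-3.56 ± 0.70, adjusted p = 0.000326). In anti-mir-34 embryos it was the other way round: the first step passed (-3.69 ± 0.70, adjusted p = 0.00026) and the second did not (-1.12 ± 0.70, adjusted p = 0.232). The difference between the injections in these steps did not pass in either (adjusted p = 0.299 and 0.497).

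The linker histone of the oocyte, h1m (Dr.24203.1.S1_at), packs chromatin in eggs and cleavage embryos in place of somatic H1, and in zebrafish its message is also known from primordial germ cells. Mock levels were 11.24, 10.62 and 11.29 at 1 hpf, 9.98, 10.63 and 9.21 at 7 hpf, and -0.68, 5.62 and -0.36 at 24 hpf. Anti-mir-34 levels were 10.77, 10.94 and 11.13, then 8.67, 10.35 and 8.43, then -1.38, -0.35 and -0.09. So h1m stayed in the upper part of the scale through 7 hpf, and then 5 of 6 arrays were below 0 while mock replicate 2 was not. Its first step did not pass in mock (-1.11 ± 1.01, adjusted p = 0.46) or in anti-mir-34 embryos (-1.80 ± 1.01, adjusted p = 0.168). The latter passed in a fit of those 2 groups alone (adjusted p = 0.00728) and with 16 added (-1.76, adjusted p = 0.00419). Between 7 and 24 hpf h1m fell, by differences of -8.41 ± 1.01 in mock (adjusted p = 1.48e-06) and -9.76 ± 1.01 in anti-mir-34 embryos (adjusted p = 2.82e-07), or -5.25 and -5.14 with 16 added.

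Of the genes of meiotic arrest and release, wee2 codes for a kinase that, in mammals, keeps Cdk1 inactive in the oocyte. It had 5 probe sets. On the brightest, Dr.6833.1.A1_at, mock levels were 8.71, 8.97 and 9.48 at 1 hpf, 8.14, 8.49 and 6.62 at 7 hpf and -1.77, 2.52 and -1.30 at 24 hpf. Anti-mir-34 levels were 9.26, 9.11 and 9.57, then 6.88, 7.88 and 6.47, then -0.34, 1.31 and -1.77. The ages did not overlap in either kind of embryo. The first step was -1.3 ± 0.83 in mock (adjusted p = 0.277; -1.23 and adjusted p = 0.0114 with 16 added). In anti-mir-34 embryos wee2 fell by 2.24 ± 0.83 (adjusted p = 0.0372). That call ended when anti-mir-34 replicate 1, 2 or 3 of 1 hpf was left out (adjusted p = 0.0737, 0.0598 and 0.0935), or replicate 1 or 3 of 7 hpf (adjusted p = 0.0956 and 0.127), and also without the intensity trend (adjusted p = 0.0769). In the second step wee2 fell, by differences of -7.93 ± 0.83 in mock (adjusted p = 2.69e-07) and -7.35 ± 0.83 in anti-mir-34 embryos (adjusted p = 8.76e-07).

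The other 4 probe sets of wee2 were dimmer, with mock means of 6.20, 5.19, 4.87 and 3.23 at 1 hpf. The dimmest, Dr.25706.3.S1_x_at, has the suffix that Affymetrix gives to probe sets open to cross-hybridisation. None of the 4 passed between 1 and 7 hpf in either kind of embryo (the lowest adjusted p was 0.0586, for Dr.25706.1.S1_at in anti-mir-34 embryos). In anti-mir-34 embryos that probe set passed with 16 added to the signals (adjusted p = 0.0224), with the filter on low levels (0.0493), in a fit of the 2 groups alone (0.0427) and with array weights (0.0278). It also passed without replicate 2 of 1 hpf (adjusted p = 0.00931) or replicate 2 of 7 hpf (adjusted p = 0.0393), and the dimmest probe set passed there with 16 added (adjusted p = 0.0416). All 4 fell between 7 and 24 hpf, with mock differences of -2.81, -4.78, -4.32 and -2.61 in the same order. With 16 added, Dr.25706.2.S1_a_at no longer passed in anti-mir-34 embryos (adjusted p = 0.0523). The mock differences were smaller than the -7.93 of the brightest probe set.

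The kinase Mos, coded by mos (Dr.12572.1.S1_at), starts the MAP kinase cascade of maturation and is part of the activity that holds the egg in metaphase. Mock levels of mos were 10.47, 10.40 and 10.72 at 1 hpf, 7.67, 7.87 and 5.15 at 7 hpf and 1.96, 4.94 and 2.71 at 24 hpf. Anti-mir-34 levels were 10.47, 10.72 and 10.90, then 4.68, 6.16 and 4.31, then -0.60, 1.82 and 1.56. The ages did not overlap, but at 7 hpf mock replicate 3 stood with the anti-mir-34 arrays, and mock replicate 2 of 24 hpf (4.94) was just below it. In the first step mos fell, by differences of -3.63 ± 0.73 in mock (adjusted p = 0.000896) and -5.65 ± 0.73 in anti-mir-34 embryos (adjusted p = 4.29e-06). In the second it fell, by differences of -3.69 ± 0.73 in mock (adjusted p = 0.00037) and -4.13 ± 0.73 in anti-mir-34 embryos (adjusted p = 0.00017). With 16 added these were -2.36 and -1.47, and the larger fall was then in mock embryos.

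In the mouse, BTG4, coded here by btg4 (Dr.12259.1.S1_at), brings the CCR4-NOT deadenylase to maternal messages so that they are broken down. Mock levels of btg4 were 10.96, 10.50 and 11.03 at 1 hpf, 8.76, 9.16 and 7.02 at 7 hpf and -0.88, 5.31 and -0.59 at 24 hpf. Anti-mir-34 levels were 10.86, 10.88 and 10.67, then 5.56, 7.29 and 5.03, then -1.0, -0.99 and -0.88. The 5 arrays of 24 hpf other than mock replicate 2 lay between -1.0 and -0.59. The first step in mock embryos, without overlap, was -2.51 ± 1.02 and just missed the threshold (adjusted p = 0.0785). It passed in a fit of those 2 groups alone (adjusted p = 0.00458), with 16 added to the signals (adjusted p = 0.000616) and with array weights (adjusted p = 0.0441). In anti-mir-34 embryos btg4 fell by 4.85 ± 1.02 (adjusted p = 0.000732). After 7 hpf it fell, by differences of -7.04 ± 1.02 in mock (adjusted p = 1.33e-05) and -6.92 ± 1.02 in anti-mir-34 embryos (adjusted p = 2.17e-05), or -3.77 and -2.29 with 16 added.

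In counts, 3 of the 14 probe sets fell between 1 and 7 hpf in mock embryos, where 10.4% of all probe sets fell and 13.6% rose, and 7 of 14 fell in anti-mir-34 embryos, where 20.0% of all fell and 19.4% rose. None of the 14 rose in either. With 16 added to the signals the 2 counts were 5 and 11, but the share of all probe sets called in that fit was not counted. The median difference of the 14 was -0.95 in mock and -1.64 in anti-mir-34 embryos, beside -0.19 and -0.23 over all probe sets. Between 7 and 24 hpf all 14 fell in mock embryos, where 23.5% of all probe sets fell and 19.5% rose. In anti-mir-34 embryos 13 of 14 fell, the exception being the second probe set of bmp15, where 19.4% of all fell and 16.5% rose. The medians were -4.29 and -4.18, beside -0.09 and -0.13 over all probe sets. The genes were picked as oocyte genes with results of these arrays known, so these counts describe them and are no independent evidence of a direction.

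**Figure D2:**
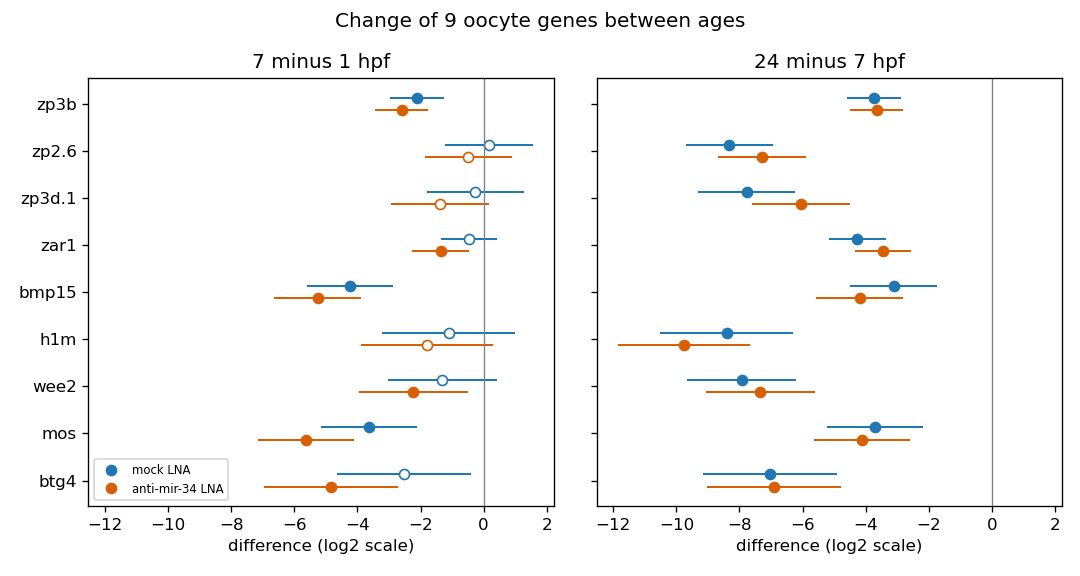
Log2 differences between ages (horizontal axis) for the brightest probe set of each gene, 7 minus 1 hpf on the left and 24 minus 7 hpf on the right, in mock (blue) and anti-mir-34 embryos (orange). Lines are 95% intervals of limma, and filled points passed the adjusted threshold. In the left panel the differences run from 0.17 (zp2.6, mock) to -5.65 (mos, anti-mir-34), and in the right panel all points are filled.

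At 7 hpf the arrays of a group differed among themselves, by more for some of the 9 genes than for others. In mock embryos mos ranged over 2.71, bmp15 over 2.28, btg4 over 2.13 and wee2 over 1.88 on the log2 scale, whereas zp2.6 ranged over 0.32, zp3b over 0.53 and zp3d.1 over 0.74. For all 9 genes mock replicate 3 was lowest of the 3 mock arrays. Anti-mir-34 replicate 2 was highest of the 3 anti-mir-34 arrays for all of them except zp2.6, where it was lowest, and zar1, where it was between the others. Markers of gastrula germ layers, of which 21 of 22 were on the array, had medians of 6.03, 4.55 and 6.58 on the mock arrays and 6.70, 5.89 and 6.78 on the anti-mir-34 arrays. In each group the array with the highest median over the 9 oocyte genes (7.87 in mock replicate 2, 6.63 in anti-mir-34 replicate 2) thus had the lowest gastrula median. The 3' to 5' difference of GAPDH on the 7 hpf arrays was -0.30, 0.70 and -0.76 in mock and 0.53, 0.78 and -1.40 in anti-mir-34 embryos. The part of stage and of RNA quality in the levels at 7 hpf was not tested.

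At 24 hpf, 1 array stood apart for some of these genes and not for others. In mock replicate 2, h1m was 5.71 and btg4 5.90 above the highest of the other 5 arrays of that age, mos 2.23, bmp15 2.13, wee2 1.21 and zp3b 1.00. For zar1 this array was second highest (2.6, against 2.84 in anti-mir-34 replicate 2). For zp2.6 it was second lowest (-0.63), and for zp3d.1 it was the lowest of the 6 (-2.88). It thus held the highest value in 10 of 14 probe sets, beside 21.0% of all probe sets measured on the 6 arrays. Several of these 10 belong to the same gene, wee2 or bmp15. The array was singled out with earlier results known, in which it stood apart in maternal genes. The count therefore describes it and is no independent evidence. The h1m and btg4 levels of mock replicate 2 (5.62 and 5.31) were still below the lowest mock value of 7 hpf, 9.21 and 7.02. Set against the anti-mir-34 arrays of 7 hpf, h1m was below all of them (lowest 8.43), but btg4 was above replicate 3 (5.03). The level of mos (4.94) was above anti-mir-34 replicates 1 and 3 of 7 hpf (4.68 and 4.31). Of the 3 probe sets shared among zp2 genes, mock replicate 2 was highest of the 6 for 1 (5.41) and lowest for another (-1.60).

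**Figure D3:**
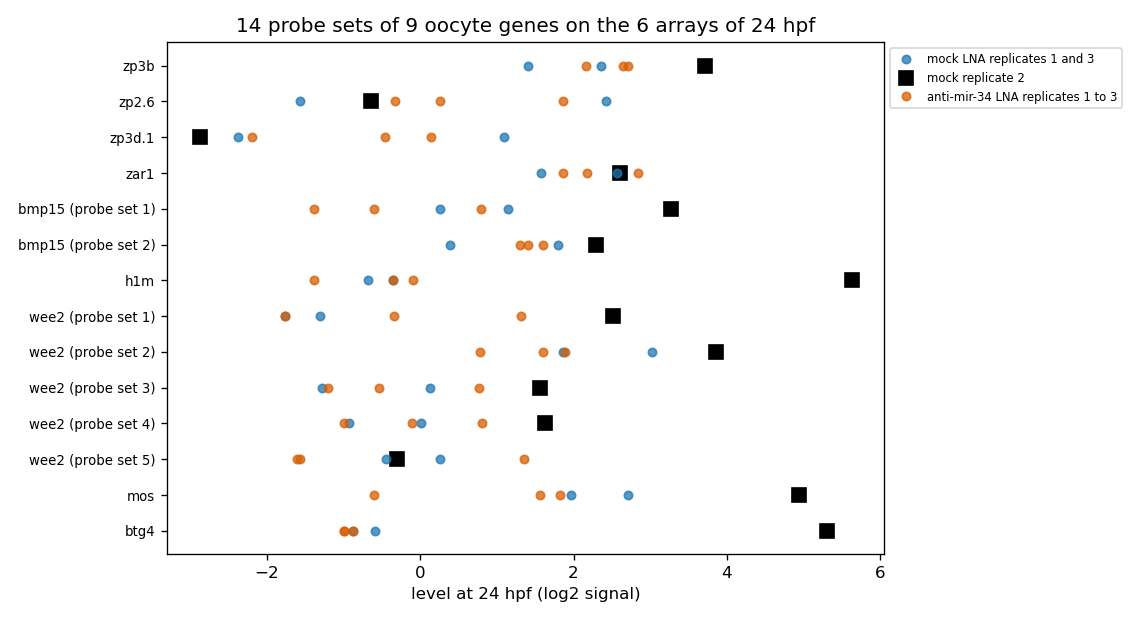
Log2 signal at 24 hpf (horizontal axis) of all 14 probe sets on the 6 single arrays. Black squares are mock replicate 2, blue circles the other 2 mock arrays and orange circles the 3 anti-mir-34 arrays. The squares of h1m (5.62) and btg4 (5.31) lie far right of all circles, while those of zp2.6 (-0.63) and zp3d.1 (-2.88) do not.

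The same array was high for other messages lost by 24 hpf. A set of probe sets was chosen for this, after the data had been seen, from the anti-mir-34 arrays alone: a mean of at least 8 at 1 hpf and a fall of at least 6 by 24 hpf, which 87 probe sets outside the 9 genes met. Their median level on the mock arrays of 24 hpf was 1.57, 3.96 and 1.48, and 75 of the 87 were highest in replicate 2 of the 3 mock arrays, beside 33.6% of all probe sets. On the anti-mir-34 arrays of 24 hpf, which chose the set, it was 1.43, 1.61 and 1.24.

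Markers of stage were read on the same arrays. The median of 18 of 23 muscle markers was 9.69, 9.97 and 9.90 on the 3 mock arrays and 9.58 to 9.90 on the anti-mir-34 arrays. That of the gastrula markers was 1.99, 1.34 and 1.75 in mock and 1.70 to 1.77 in anti-mir-34 embryos. By these medians mock replicate 2 was the highest of the 6 arrays for muscle, by a small margin, and the lowest for gastrula markers. Gene by gene, it was highest of the 3 mock arrays for 7 of 18 muscle markers and lowest for 3. For the 21 gastrula markers it was lowest for 10 and highest for 4. The median of 20 of 22 neuronal markers on the mock arrays was 6.81, 6.87 and 6.92. That of 11 of 14 markers of primordial germ cells was 1.46, 1.60 and 0.84 in mock and 0.64, 1.5 and 1.23 in anti-mir-34 embryos. Among them the germ cell helicase gene ddx4 stood at 0.13, 1.60 and 0.84 on the mock arrays, and nanos3, another germ cell gene, at 2.66, 2.93 and -1.22. Of the 11 germ cell markers 5 were highest in replicate 2 of the 3 mock arrays and 5 were lowest there, piwil1 for example at 1.46, 1.27 and 2.18. Markers of ovarian somatic cells, 7 of 11 of which were on the array, had medians of -0.35, 0.25 and 0.60. The 3' to 5' difference of GAPDH was 1.19, 1.72 and 0.99 on the mock arrays and 1.21, 1.77 and 1.55 on the anti-mir-34 arrays. The part of germ cells and of RNA quality in the levels of mock replicate 2 was not tested.

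**Figure D4:**
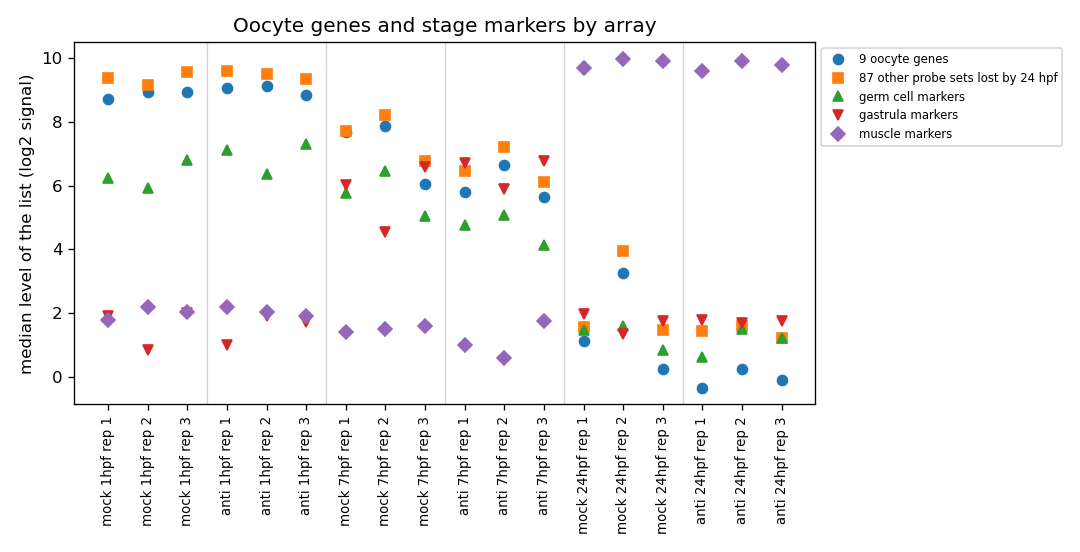
Median log2 signal (vertical axis) on each of the 18 arrays (horizontal axis) for the 9 oocyte genes, the 87 other probe sets lost by 24 hpf and 3 marker lists. At 24 hpf mock replicate 2 is highest for the oocyte genes (3.27) and the other lost probe sets (3.96), and its gastrula median (1.34) is the lowest and its muscle median (9.97) the highest of the 6 arrays.

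Without mock replicate 2, all 14 probe sets still fell between 7 and 24 hpf in mock embryos. The difference of h1m was then -10.46 ± 0.49 and that of btg4 -9.05 ± 0.54, against -8.41 and -7.04 with it, and those of zp2.6 and zp3d.1 were -7.97 and -7.03.

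The injection of anti-mir-34LNA was compared with that of mockLNA at each age. At 1 hpf none of the 14 probe sets passed, beside 1.23% of all. None of the 14 had an unadjusted p under 0.05, beside 1524 of all 15502 probe sets. The differences lay between -0.11 and 0.52, with the groups overlapping for every probe set. For the brightest probe sets the 95% intervals reached from -2.21 at the lowest to 2.1 at the highest. The narrowest were those of zp3b (0.42, interval -0.42 to 1.27) and zar1 (0.14, interval -0.76 to 1.03).

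At 7 hpf none of the 14 passed either, beside 0.0129% of all probe sets. An unadjusted p under 0.05 was found for 3 of the 14, beside 1926 of all 15502 probe sets. All 9 genes had lower means in anti-mir-34 embryos on their brightest probe set, from -0.06 for zp3b to -2.35 for btg4 (interval -4.47 to -0.24, adjusted p = 0.356). The difference of mos was -1.84 (interval -3.37 to -0.32, adjusted p = 0.321) and that of the second probe set of bmp15 -2.51 (interval -3.96 to -1.06, adjusted p = 0.157). Both passed without mock replicate 3 of 7 hpf (adjusted p = 0.0466 and 0.0281). For btg4 and mos the 2 groups overlapped, with mock replicate 3 below anti-mir-34 replicate 2. On the brightest probe set of all 9 genes except zp3b, each anti-mir-34 array was below the mock array of the same replicate number. Whether these numbers mark pairs is not stated, and the share of all probe sets with this order was not counted. With the replicate number as a block, 0 of the 14 passed at 7 hpf. The 87 other lost probe sets had the same order in their medians, 7.70, 8.21 and 6.77 in mock and 6.44, 7.22 and 6.10 in anti-mir-34 embryos. The gastrula medians of 7 hpf, given above, had the opposite order. The part of stage in this order was not tested. The groups did not overlap for zp2.6, but its difference was small (-0.50, adjusted p = 0.78). The test of whether the step from 1 to 7 hpf differed between the injections passed for none of the 14, beside 0.271% of all. Only the second probe set of bmp15 (-2.53, adjusted p = 0.299) had an unadjusted p under 0.05, beside 1834 of all 15502 probe sets. Differences between the injections in this step were negative for all 14 probe sets, from -0.14 to -2.53. Their median was -0.98, beside -0.02 over all probe sets, and at 7 hpf it was -0.78, beside 0.03. The share of all probe sets with a negative difference was not counted. Of the gene lists described below, the medians at 7 hpf were -0.64 (egg coat), -0.81 (oocyte growth and message storage) and -0.24 (meiotic maturation and M-phase). Those of the deadenylase list and of the other linker histones were 0.05 and 0.35.

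At 24 hpf none of the 14 passed, beside 0.0129% of all probe sets. Of the 14, 5 had an unadjusted p under 0.05, beside 686 of all 15502 probe sets. The largest differences were those of mos (-2.28, adjusted p = 0.824), btg4 (-2.23, adjusted p = 0.999) and h1m (-2.13, adjusted p = 0.999). For mos the groups did not overlap (1.96 to 4.94 in mock, -0.60 to 1.82 in anti-mir-34 embryos). Without mock replicate 2 the 3 differences were -1.41, -0.22 and -0.09, and again none of the 14 passed. None of the 14 then had an unadjusted p under 0.05 (lowest 0.0626 by limma, for mos). Differences of the other genes moved with that array too: wee2 from -0.08 with it to 1.27 without it and bmp15 from -1.95 to -1.09. Those of zp3d.1 moved from 0.55 to -0.20, of zp3b from 0.02 to 0.63, of zp2.6 from 0.53 to 0.18 and of zar1 from 0.05 to 0.23. With 16 added to the signals, and all arrays kept, those of mos and btg4 were both -0.59, of h1m -0.66 and of bmp15 -0.24. Those of zp2.6 and zp3d.1 were then both -0.01. The step from 7 to 24 hpf differed between the injections for none of the 14 and for 0.0% of all probe sets by limma. There, 1 of the 14 and 1333 of all 15502 had an unadjusted p under 0.05.

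**Figure D5:**
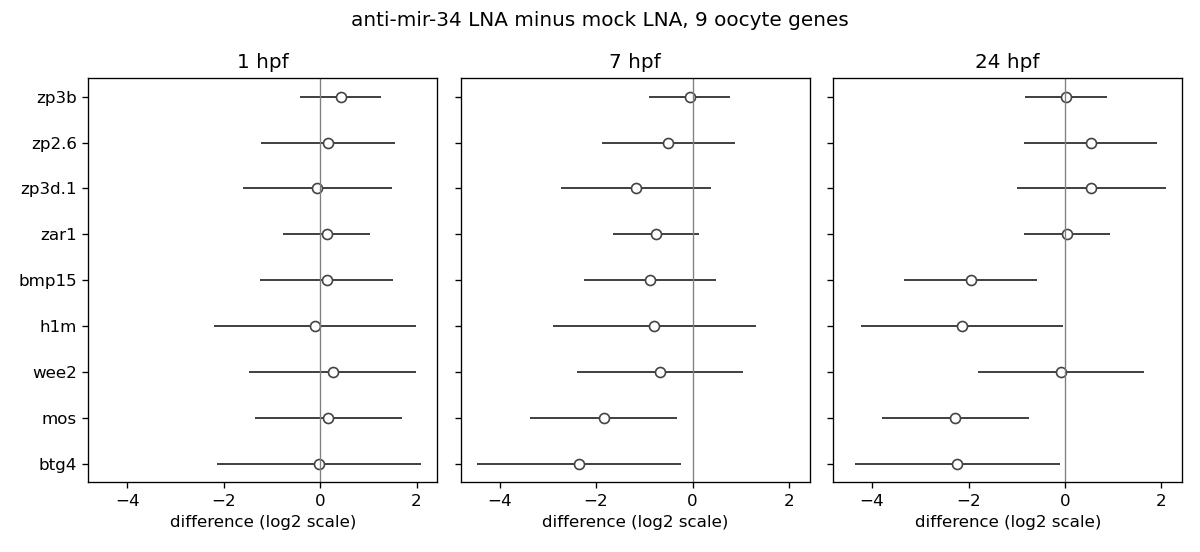
Log2 difference anti-mir-34 minus mock (horizontal axis) at 1, 7 and 24 hpf for the brightest probe set of each gene, with 95% intervals of limma from 3 arrays per group. No point passed the adjusted threshold, the points of 7 hpf run from -0.06 (zp3b) to -2.35 (btg4), and those of bmp15, h1m, mos and btg4 at 24 hpf lie near -2.

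Other egg coat genes fell too. Of 9 of 15 listed egg coat genes on the array, 3 fell and 0 rose between 1 and 7 hpf in mock embryos, where 13.8% of all 8793 genes fell and 14.3% rose. Between 7 and 24 hpf 8 fell and 0 rose, where 28.4% of all genes fell and 20.5% rose. Their medians were -1.46 and -4.48, beside -0.22 and -0.20 over all genes. In anti-mir-34 embryos 5 fell in the first step and 8 in the second, where 25.4% and 23.6% of all genes fell and 19.8% and 18.4% rose. In mock embryos zp3c fell by 2.57 ± 0.56 (adjusted p = 0.00189), zp3d.2 fell by 2.35 ± 0.68 (adjusted p = 0.0144) and zp3f.1 fell by 1.56 ± 0.44 (adjusted p = 0.0121) in the first step. In the second, zp3a.1 fell by 5.69 ± 0.68, zp3a.2 fell by 5.42 ± 0.68 and zp3f.1 fell by 4.75 ± 0.44 (adjusted p = 1.36e-06, 2.36e-06 and 5.08e-08). The coat genes thus had, next to zp3b, further members with an early fall and, next to zp2.6 and zp3d.1, members whose first step did not pass: zp3a.1 differed by -0.37 (adjusted p = 0.734) and zp3a.2 by 0.42 (adjusted p = 0.693).

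Of 28 names listed for oocyte growth and message storage, 21 were of genes on the array. In mock embryos 7 fell and 1 rose in the first step and 16 fell and 0 rose in the second, with medians of -1.58 and -4.15. These are 33.3% and 76.2% of the list down, beside 13.8% and 28.4% of all genes. In anti-mir-34 embryos 15 fell and 2 rose, then 17 fell and 0 rose. These are 71.4% and 81.0% down, beside 25.4% and 23.6% of all genes in the same anti-mir-34 steps. The relative of zar1, zar1l, fell by 3.26 ± 0.89 (adjusted p = 0.0106), the oogenesis-related gene org fell by 3.19 ± 0.78 (adjusted p = 0.00471) and patl2, which codes for a repressor of oocyte messages, fell by 2.91 ± 0.82 (adjusted p = 0.0124) by 7 hpf. Between 7 and 24 hpf the Balbiani body organiser buc fell by 6.81 ± 0.75 (adjusted p = 5.16e-07), the claudin gene cldnd fell by 6.69 ± 1.12 (adjusted p = 6.72e-05) and zar1l fell by 6.56 ± 0.89 (adjusted p = 6.69e-06). On the mock arrays of 24 hpf the median level of this list was 1.89, 3.97 and 1.70, again highest in replicate 2.

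Genes of meiotic maturation and M-phase, many of which serve dividing embryonic cells too, fell in part. Of 25 of 34 on the array 11 fell and 0 rose, then 12 fell and 2 rose in mock embryos, with medians of -0.68 and -0.87. The list's shares down were 44.0% and 48.0%, beside 13.8% and 28.4% of all genes, whose medians were -0.22 and -0.20. In anti-mir-34 embryos 13 fell and 1 rose, then 11 fell and 2 rose. The shares down were 52.0% and 44.0%, beside 25.4% and 23.6% of all genes in the same anti-mir-34 steps. The inhibitor of the anaphase-promoting complex fbxo43, known from Xenopus to hold the egg in metaphase, fell by 4.32 ± 0.83 (adjusted p = 0.000554), birc5b fell by 3.57 ± 0.67 (adjusted p = 0.000504) and the mitotic kinase gene plk1 fell by 2.26 ± 0.23 (adjusted p = 4.79e-07) by 7 hpf. After 7 hpf the germ line cyclin gene ccna1 fell by 8.64 ± 0.90 (adjusted p = 2.71e-07), birc5b fell by 4.50 ± 0.67 (adjusted p = 2.04e-05) and ccne1 fell by 4.15 ± 0.44 (adjusted p = 2.89e-07), while plk1 differed by 0.46 (adjusted p = 0.121). At 1 hpf 1 gene of this list (4.0%) was lower in anti-mir-34 embryos, beside 1.07% of all genes, and none passed at 7 or 24 hpf. The difference of the first step between the injections passed upward for 1 gene (4.0%), beside 0.159% of all genes.

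Genes of the CCR4-NOT deadenylase and the BTG/Tob relatives of btg4 were together called about as often as genes in general in the first step. The list held 23 names of deadenylase and BTG/Tob genes. Of these, 15 were on the array, all of the CCR4-NOT complex or the BTG/Tob family. In mock embryos 2 fell and 2 rose in the first step and 6 fell and 2 rose in the second, with medians of -0.16 and -0.36. In the first step 13.3% of the list fell and 13.3% rose, beside 13.8% and 14.3% of all genes, and in the second 40.0% fell and 13.3% rose, beside 28.4% and 20.5%. In anti-mir-34 embryos 4 fell and 3 rose, then 5 fell and 1 rose. The shares down were 26.7% and 33.3%, beside 25.4% and 23.6% of all genes in the same anti-mir-34 steps. The antiproliferative gene btg1 rose by 1.98 ± 0.43 (adjusted p = 0.00171) and the CCR4-NOT subunit gene cnot9 rose by 1.17 ± 0.23 (adjusted p = 0.000881), while cnot10 fell by 1.3 ± 0.32 (adjusted p = 0.00502) by 7 hpf. After 7 hpf btg3 fell by 1.97 ± 0.26 (adjusted p = 4.49e-06), the deadenylase gene cnot7 fell by 1.97 ± 0.46 (adjusted p = 0.00179) and the deadenylase gene cnot6a fell by 1.92 ± 0.34 (adjusted p = 0.000107). In this list 1 gene (6.67%) was lower in anti-mir-34 embryos at 1 hpf, beside 1.07% of all genes.

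Of 5 other linker histone names listed, 2 were of genes on the array. Both rose in both steps in mock embryos, where 14.3% and 20.5% of all genes rose. In mock embryos histh1l1 rose by 3.76 ± 0.33 (3.43 to 7.19, adjusted p = 6.37e-08) and then rose by 1.99 ± 0.33 (adjusted p = 7.03e-05). The gene h1-10 rose by 2.1 ± 0.72 from a level of 0.06 (adjusted p = 0.039; 0.24 and adjusted p = 0.522 with 16 added) and then rose by 2.9 ± 0.72 (adjusted p = 0.00271). In anti-mir-34 embryos 1 rose in the first step and both in the second, where 19.8% and 18.4% of all genes rose.

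The 9 genes resembled each other over the 18 arrays, with Pearson's r between 0.77 and 0.98 and a median of 0.92 over the 36 pairs. The arrays share 3 ages, so r is given as a description. Among 8759 other named genes without missing values, those most like the mean standardised profile of the 9 were the glycogenin gene gyg1a, zgc:171474, avd, si:dkey-90l23.2, the cyclin gene ccnp, zgc:103482, sh2d5 and mpv17, all with r of 0.99. Of single genes, btg4 was most like map1lc3c (r = 0.996), h1m like zgc:113424 (0.99), wee2 like zgc:103482 (0.99), zp3b like the germ line gene asz1 (0.99) and zp2.6 like wu:fi42e03 (0.99). Both bmp15 and mos were most like org (0.98 for each), zp3d.1 like sh3yl1 (0.98) and zar1 like spout1 (0.98). The mock array of replicate 2 at 24 hpf was high for the partners of btg4, h1m, bmp15 and mos, at 6.19 for map1lc3c, 3.97 for zgc:113424 and 5.71 for org, against mock means over 3 arrays of 3.85, 0.87 and 3.0. For the partners of zp2.6 and zp3d.1, wu:fi42e03 and sh3yl1, it stood at 0.08 and 1.04 against means of 0.20 and 1.47. All partners were chosen by r over the 18 arrays, this array among them. Their levels on it therefore follow from the choice and are no separate observation about the array.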

How the data were processed

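Whole-embryo RNA was read on 18 one-colour Affymetrix arrays. The authors' deposited matrix holds log2 signals, as its values show (lowest -3.32). The submitters' processing notes name GCOS and give no version, and neither probe summary nor normalization is stated there. Array medians lay between 3.67 and 3.68, and 13 arrays share the exact value distribution of another array, so the values are relative to the other probe sets of an array and total RNA cannot be read from them. With 3 arrays per group, their number limits the precision.

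Gene names come from the platform annotation, with symbols updated by Entrez number through the RefSeq table of GRCz12tu (10711 of 10795 with 1 symbol matched). The probe set with the highest mean stood for a gene. The 9 genes and all lists were chosen with earlier results of these data known. Of each list, the up to 3 genes with the largest called difference in each mock age step are named. After removal of 115 controls, limma 3.58.1 in R 4.3.3 fitted 1 mean per group to all 18 arrays (12 residual degrees of freedom, eBayes with an intensity trend), two-sided, with Benjamini-Hochberg adjustment over 15502 probe sets and a threshold of 0.05. The procedure was run on simulated data with the same spread in every group. That run cannot show how scatter that differs between ages affects the calls. Exact permutation of 3 arrays against 3 cannot go below p = 0.1. Alternatives were 16 added to the signals, no trend, a filter (level 5 on at least 3 arrays), a further quantile normalization and the compared groups alone. Others were the replicate number as a block, array weights and leaving out each array of the compared groups. The same-numbered arrays of different groups correlated over 0.1 in 3 of 45 pairs (median 0.01), after group means were taken off. These 3 were mock against anti-mir-34 arrays of the same age. They were replicates 2 and 3 of 7 hpf (r = 0.28 and 0.25) and replicate 3 of 1 hpf (r = 0.14), while replicate 1 of 7 hpf gave 0.06. The labels do not say whether the numbers mark a shared clutch or day, so the main fit did not take them as pairs.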

Additional observations from a re-analysis of the deposited data

How the results depend on the processing

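Over the 14 probe sets and 9 comparisons, 1797 values were recomputed under alternatives. No called value changed sign, 1769 kept their side of the threshold, 20 passed only under the alternative and 8 no longer passed. Those that kept their side include all 126 values of the further quantile normalization. That alternative could change little, because 13 arrays already shared the exact value distribution of another array. With 16 added to the signals, 5 instead of 3 probe sets passed between 1 and 7 hpf in mock embryos and 11 instead of 7 in anti-mir-34 embryos. With array weights, 2 instead of 0 passed between the injections at 7 hpf. Leaving out single arrays gave 3 to 3, 14 to 14, 5 to 8 and 13 to 13 called probe sets in the 4 age steps (mock 7 against 1 and 24 against 7 hpf, then anti-mir-34). It gave 0 to 2 at 7 hpf between the injections and 0 for the other comparisons of the injections. The causes were not tested. Shares of all probe sets called were counted for the main fit only, so the counts under alternatives have none beside them. For each comparison only fits without an array of its own groups were counted. Mock replicate 2 of 24 hpf, which enters the shared spread, was thus not left out for the steps from 1 to 7 hpf or for the injections at 7 hpf. The filter on low levels kept 13 of the 14 probe sets. With the replicate number as a block, the paired fit gave 4 and 14 in the mock steps and 7 and 13 in the anti-mir-34 steps, the added call being btg4 in mock embryos (adjusted p = 0.048). With no detection calls, signal over background is unknown, and levels at 24 hpf limit the size of the second step.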
